A study of Rattus norvegicus with 45 samples.

Results

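The genes described here are 36 rat genes that take up fatty acids, carry them into the mitochondrion and oxidise them there. They were chosen by gene symbol for their known function, with earlier results of these data known. All 36 had a probe set on the array. By a filter on low signal 35 were tested, of 11684 named genes tested in all. The exception was Ppara, a nuclear receptor that switches on fatty acid oxidation genes, whose signal lay between 4.4 and 78.0 in the high-dose exercised gastrocnemius and between 15.2 and 79.7 in its vehicle group. Total RNA came from the gastrocnemius and the soleus of female SD rats and was hybridised to 45 Affymetrix arrays, 1 per sample. All animals were dosed daily for 14 days with cerivastatin, a statin that inhibits cholesterol synthesis, or with its vehicle, 0.5% methylcellulose. Exercised animals ran on a treadmill for 20 min a day at 20 m/min on 5 days a week, and the others did not run. In the gastrocnemius the doses were 0.1, 0.5 and 1.0 mg/kg/day against vehicle, each with and without exercise. In the soleus they were 1.0 mg/kg/day against vehicle, each with and without exercise. Of these 12 groups, 9 had 4 arrays and 3 had 3 arrays (gastrocnemius at 1.0 mg unexercised, gastrocnemius at 0.5 mg exercised, soleus at 1.0 mg unexercised). The stated aims were the drug's effect, its combination with running, and the basis of the unequal statin sensitivity of fibre types.

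Long-chain fatty acids enter a muscle fibre with the help of membrane and cytosolic carriers, are activated to acyl-CoA, pass the mitochondrial membranes as acylcarnitines and are shortened in the repeated steps of beta-oxidation. The electrons released pass through the electron transfer flavoprotein to the respiratory chain. Slow oxidative fibres, which fill most of the rat soleus, are known to rely on this pathway more than the fast glycolytic fibres that prevail in the gastrocnemius.

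The mitochondrial trifunctional protein, which carries out the last steps on long chains, has an alpha subunit encoded by Hadha and a beta subunit encoded by Hadhb. The 2 genes lie head to head in the rat genome. Their annotated start sites, at 31907801 for Hadha and 31907500 for Hadhb on chromosome 6, are 301 bases apart in the RefSeq annotation of build GRCr8. The 250 bases before the Hadha start are shown because most of them, 200 bases, also lie within the 250 bases before the Hadhb start, and the 2 genes are compared below. The 50 bases nearest the Hadhb start are not part of it. The sequence covers chr6:31907551-31907800 on the plus strand, is printed 5′ to 3′ in the direction of Hadha, and has a GC content of 53.6%.
Hadha upstream: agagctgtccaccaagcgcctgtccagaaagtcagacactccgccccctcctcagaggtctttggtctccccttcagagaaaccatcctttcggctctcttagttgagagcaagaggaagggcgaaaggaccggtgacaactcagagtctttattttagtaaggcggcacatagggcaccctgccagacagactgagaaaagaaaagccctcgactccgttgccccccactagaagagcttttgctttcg
RefSeq promoters were matched by symbol for 29 of the 36 members. A direct repeat of AGGTCA with 1 base between the copies, the kind of element that peroxisome proliferator-activated receptors bind, was searched on both strands in the 250 bases before the start site. It was found in 0 of the 29 member promoters and in 0.051% of all 33469 promoters of that length. At so low a rate, 0 of 29 is the usual outcome for any genes, so it says nothing about the members. Only exact copies within these 250 bases were searched. A single copy of AGGTCA, which the repeat contains, was found in 4 of the 29 (Echs1, Plin5, Eci1 and Acadvl), or 13.793%, against 14.064% of all promoters. It was not found in the printed sequence.

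Arrays differed in ways that bear on these genes. The mean of 12 slow-fibre markers, on the log2(signal + 12.4) scale on which all differences below are given, ranged from 7.114 to 14.935 over the 30 gastrocnemius arrays. In the 15 soleus arrays it ranged from 14.723 to 15.757. Slow-fibre marker signal thus varied far more among gastrocnemius than among soleus samples. In whole muscle, fewer cells of a type and less RNA per cell cannot be told apart. In the arrays of replicate 3 of the unexercised gastrocnemius at 0.1 mg, replicate 1 of the exercised soleus at 1.0 mg and replicate 3 of the unexercised soleus vehicle group, the adipocyte marker mean was highest, at 13.4, 13.2 and 13.0. The first of these also had the lowest actin 5′ to 3′ ratio, 0.116, a sign of RNA quality, and the second had the next lowest, 0.245. That soleus array also had the highest macrophage marker mean of the soleus arrays, 10.8.

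**Figure D1:**
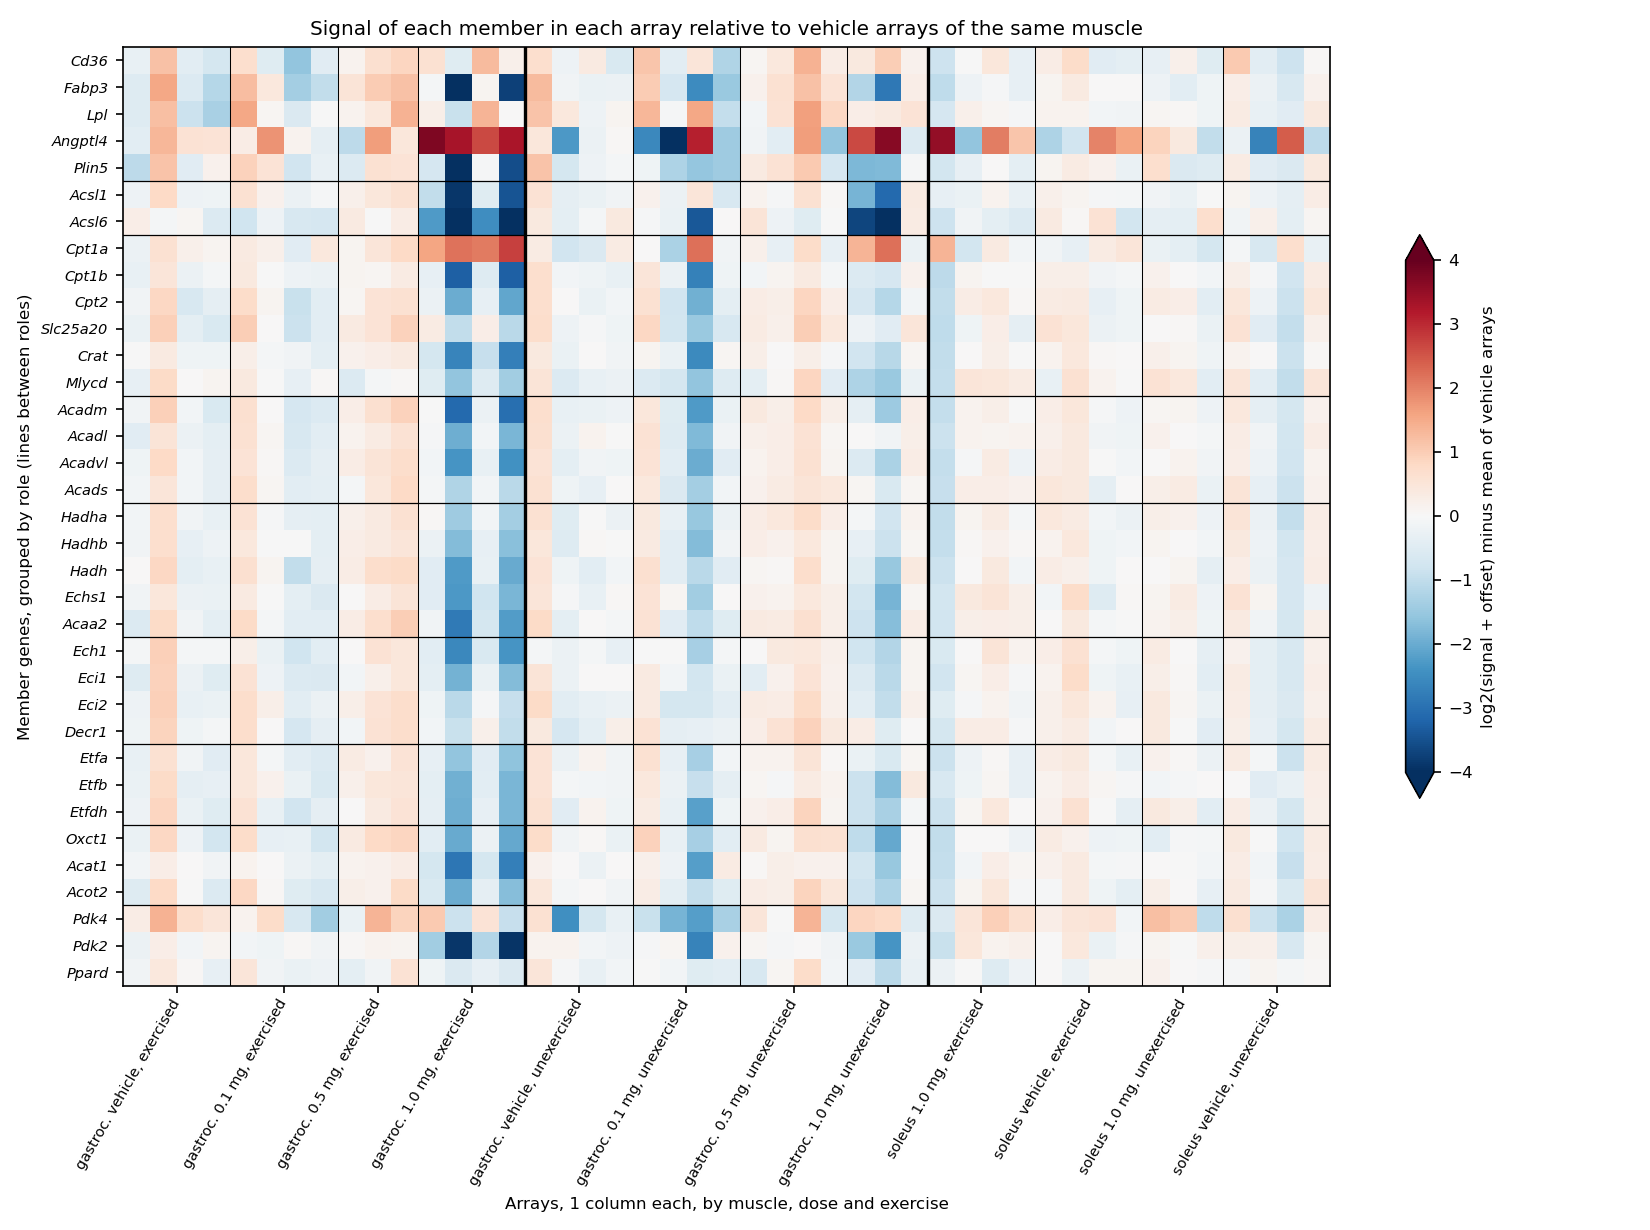
Each row is a member gene and each column an array. Colour gives the log2(signal + 12.4) minus the mean of the vehicle arrays of the same muscle, red for higher and blue for lower. Blue fills the columns of replicates 2 and 4 of the exercised gastrocnemius at 1.0 mg for most rows, while Angptl4 and Cpt1a are red in all 4 arrays of that group.

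In the exercised gastrocnemius, 1.0 mg/kg/day of cerivastatin was compared with vehicle (4 arrays each) to ask what the high dose does in running animals. Of the 35 members tested, 20 fell and 2 rose, and 13 did not pass the test. Among all 21729 probe sets tested, 20.4% were called lower and 23% higher in this comparison, 43.4% in all. The share of members that fell was 57.1%. The median change of the members was -1.09 on the log2 scale, against -0.01 over all probe sets. The falls were spread over activation, transport, oxidation and electron transfer, whereas uptake genes did not move together. The arrays of the groups did not overlap for 12 members, and for 42.3% of all probe sets tested.

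Uptake and lipid supply came first in the pathway and was the most mixed group. Of its 5 members 1 rose, 1 fell and 3 did not pass. Angptl4, a secreted inhibitor of lipoprotein lipase, had signals of 7477, 5565, 3483 and 5450 in the high-dose arrays, against 411, 1396, 827 and 818 in vehicle arrays. Every treated array lay above every vehicle array, and the change was 2.73 ± 1.04 (log2, SE; adjusted p = 0.0354). Plin5, which coats lipid droplets beside mitochondria, had signals of 438, 16.5, 670 and 48.1 in high-dose arrays, against 333, 1571, 512 and 787 in vehicle arrays. It fell by 2.18 ± 0.72 (adjusted p = 0.0152), but replicates 1 and 3 of the treated group lay within the vehicle range.

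Cd36, the fatty acid translocase, and Lpl, lipoprotein lipase, did not pass the test. Cd36 had signals of 5864, 2726, 9262 and 4453 at the high dose, against 3128, 8697, 2857 and 2368 in vehicle arrays, and the groups overlapped (0.46 ± 0.48, adjusted p = 0.468). Lpl differed by 0.55 ± 0.56 (adjusted p = 0.452). Fabp3, the heart and muscle fatty acid-binding protein, had signals of 15722, 601, 18253 and 1251 at the high dose, against 11653, 49430, 11549 and 7524 in vehicle arrays. Its change of -1.95 ± 0.89 did not pass (adjusted p = 0.077). Its treated arrays split into a pair near the vehicle level and a pair far below it, the same arrays in which Plin5 was low.

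Both activating enzymes, the long-chain acyl-CoA synthetases, fell. Acsl6 had signals of 1252, 112, 1061 and 131 in high-dose arrays, against 7303, 5682, 6390 and 4108 in vehicle arrays. All treated arrays were below all vehicle arrays, and its change of -3.87 ± 0.79 (adjusted p = 0.000392) was the largest among the members. Acsl1 had signals of 5272, 700, 7468 and 938 in high-dose arrays, against 8996, 18322, 9005 and 9202 in vehicle arrays. It fell by 2.25 ± 0.59 (adjusted p = 0.00304), without overlap, and its second tested probe set fell by 2.08.

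Mitochondrial entry had 6 members, of which 3 fell, 1 rose and 2 did not pass. The 2 genes of carnitine palmitoyltransferase 1, which makes acylcarnitines at the outer membrane, moved in opposite directions. Cpt1b, the muscle isoform, had signals of 8966, 1150, 7922 and 1152 at the high dose, against 9151, 15884, 9641 and 10586 in vehicle arrays, and fell by 1.82 ± 0.55 (adjusted p = 0.00963). Cpt1a, the isoform known from liver, had signals of 851, 1304, 1199 and 1903 at the high dose, against 232, 428, 321 and 301 in vehicle arrays. It rose by 1.97 ± 0.51 (adjusted p = 0.00293), and a second probe set rose by 1.36. Treated and vehicle arrays did not overlap for either gene.

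Of the other entry genes, Crat, carnitine acetyltransferase, fell by 1.76 ± 0.44 (adjusted p = 0.00235). Mlycd, which degrades malonyl-CoA, the inhibitor of Cpt1, fell by 1.14 ± 0.33 (adjusted p = 0.00663). Cpt2, which turns acylcarnitine back into acyl-CoA in the matrix, changed by -1.07 ± 0.45 without passing (adjusted p = 0.0574). Slc25a20, the carnitine-acylcarnitine carrier of the inner membrane, differed by -0.29 ± 0.43 (adjusted p = 0.619).

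**Figure D2:**
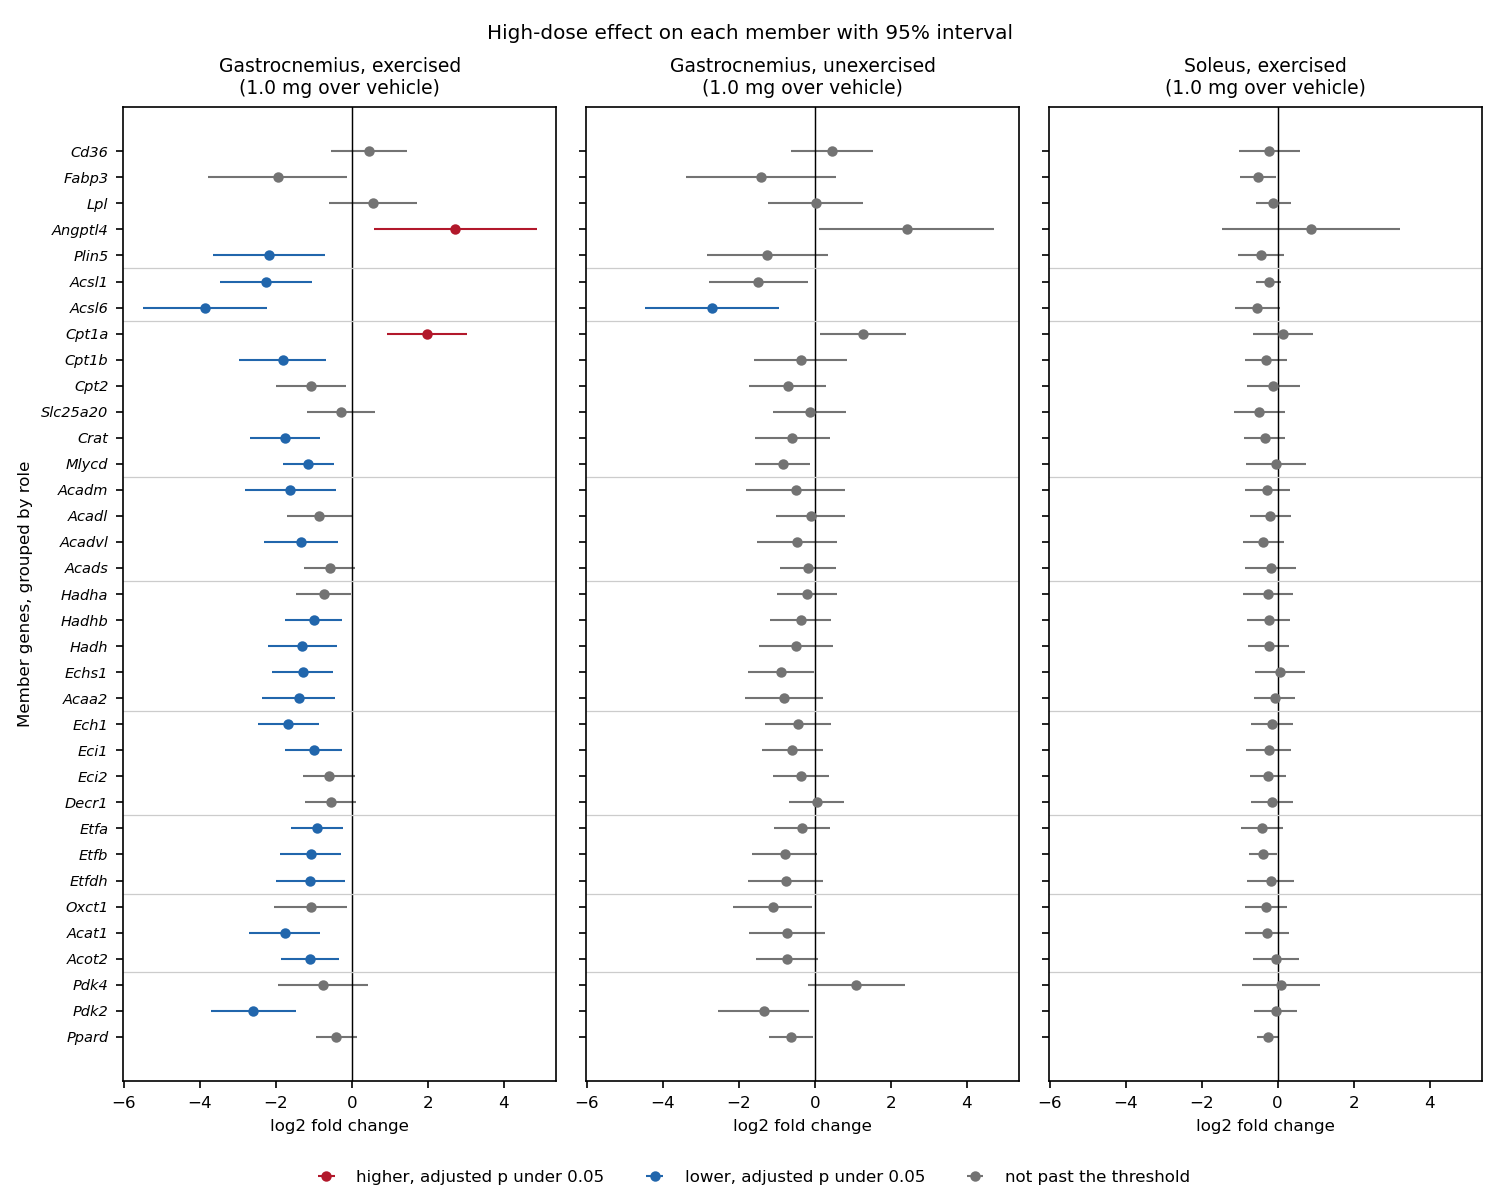
Points give the log2 fold change of each member at 1.0 mg over vehicle and bars its 95% interval, for exercised gastrocnemius, unexercised gastrocnemius and exercised soleus. In the first panel 20 members are lower (blue) and 2 higher (red), in the second 1 is lower, and in the third all 35 are grey, not past the threshold.

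The acyl-CoA dehydrogenases begin each round of beta-oxidation and differ in the chain length they accept. The genes for medium and very long chains fell, with changes of -1.62 ± 0.59 for Acadm (adjusted p = 0.0279) and -1.33 ± 0.47 for Acadvl (adjusted p = 0.0254). The genes for long chains, Acadl, and short chains, Acads, gave -0.85 and -0.58 and did not pass. Acadm had signals of 20473, 2376, 17250 and 2521 in high-dose arrays, against 18673, 39656, 18965 and 13423 in vehicle arrays. Replicates 2 and 4 of the treated group were far below all vehicle arrays, and replicates 1 and 3 were within their range.

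In the later steps of the spiral 4 of 5 members fell. Acaa2, a mitochondrial thiolase, fell by 1.40 ± 0.47 (adjusted p = 0.0168). Hadh, the hydroxyacyl-CoA dehydrogenase for shorter chains, fell by 1.30 ± 0.44 (adjusted p = 0.0186). Echs1, the short-chain enoyl-CoA hydratase, fell by 1.30 ± 0.39 (adjusted p = 0.00856). The trifunctional protein genes, which share 200 of the upstream bases printed above, gave neighbouring values on either side of the threshold. Hadhb fell by 1.01 ± 0.36 (adjusted p = 0.0268), and Hadha changed by -0.74 ± 0.36 (adjusted p = 0.0925). Hadha had signals of 8666, 3149, 7773 and 3239 at the high dose, against 7800, 13327, 7587 and 6876 in vehicle arrays. Hadhb had 18518, 6540, 17408 and 6858 at the high dose, against 20024, 35148, 17602 and 19137 in vehicle arrays. Both were low in the same 2 treated arrays, and the difference between the 2 genes was not tested.

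Unsaturated fatty acids need extra enzymes to move or remove their double bonds. Of 4 such members 2 fell. Ech1, a dienoyl-CoA isomerase, fell by 1.67 ± 0.39 (adjusted p = 0.00125). Eci1, an enoyl-CoA isomerase, fell by 0.997 ± 0.366 (adjusted p = 0.029). Eci2 and Decr1 gave -0.61 and -0.56 and did not pass. All 3 electron transfer genes fell: Etfa, Etfb and their membrane oxidoreductase Etfdh changed by -0.91, -1.09 and -1.10. Etfa had signals of 6487, 2714, 5941 and 2671 at the high dose, against 6516, 12407, 7315 and 5944 in vehicle arrays, which overlapped nowhere but by replicate 1 of the treated group (adjusted p = 0.0294).

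Among the ketone body and thioesterase genes, Acat1, the mitochondrial acetoacetyl-CoA thiolase, had signals of 8677, 1864, 8551 and 2083 in high-dose arrays, against 12992, 17027, 14075 and 12684 in vehicle arrays. It fell by 1.77 ± 0.45 (adjusted p = 0.00249), with no overlap. Acot2, a mitochondrial acyl-CoA thioesterase, fell by 1.09 ± 0.37 (adjusted p = 0.0186). Oxct1, which activates ketone bodies for use, changed by -1.09 ± 0.47 without passing (adjusted p = 0.061).

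Fuel choice between glucose and fat is set in part by kinases that switch off pyruvate dehydrogenase. Pdk2 had signals of 5530, 952, 6435 and 939 at the high dose, against 12335, 17334, 13251 and 15403 in vehicle arrays. It fell by 2.60 ± 0.54 (adjusted p = 0.000473) with no overlap, and its second probe set fell by 2.84. Pdk4, the kinase known to respond to fasting, had signals of 29024, 7728, 20568 and 7508 at the high dose, against 17203, 37050, 23007 and 19680 in vehicle arrays, and did not pass (-0.76 ± 0.58, adjusted p = 0.298). Its second probe set gave 0.12. Ppard, a nuclear receptor active in muscle, differed by -0.41 ± 0.26 (adjusted p = 0.212).

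**Figure D3:**
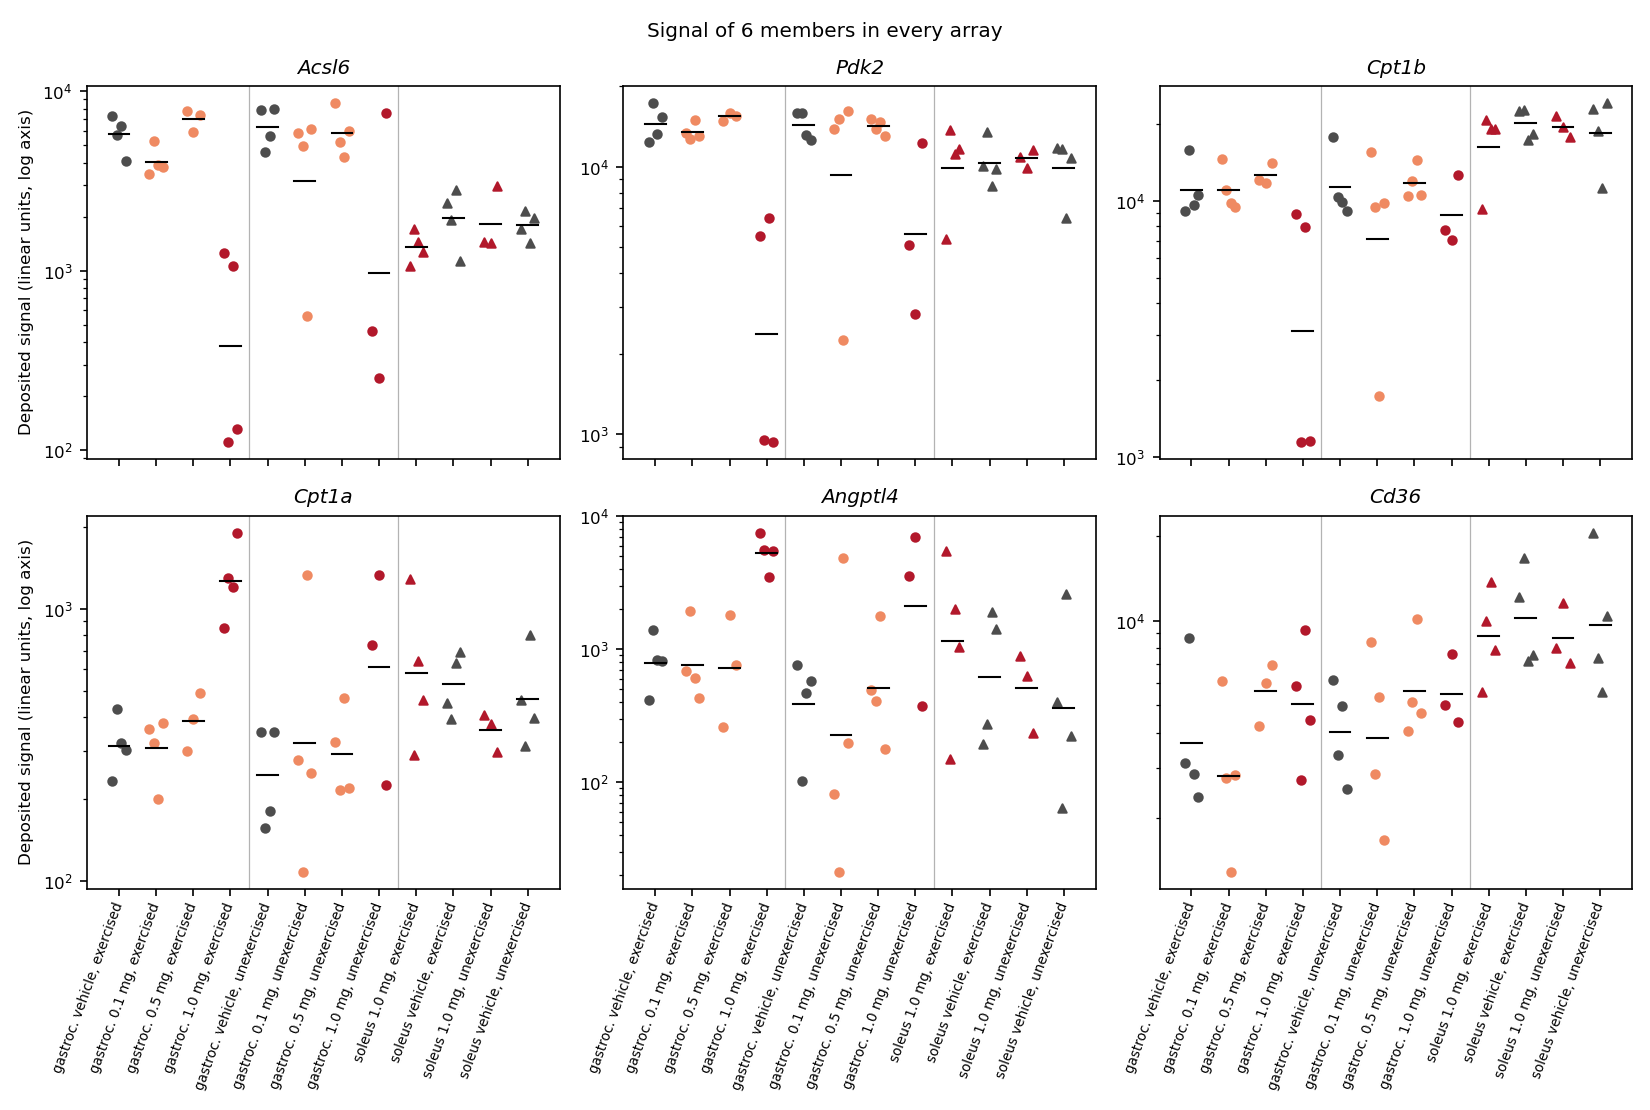
Signals of 6 members in all 45 arrays on a log axis, with circles for gastrocnemius and triangles for soleus, dark red for 1.0 mg, orange for 0.1 and 0.5 mg and grey for vehicle, and a bar at the mean of the log2 values of each group. Acsl6 at 1.0 mg in the exercised gastrocnemius lies between 112 and 1252, below all 4 vehicle arrays (4108 to 7303), while Cd36 overlaps between the same groups.

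The treated group was not uniform. The mean log2 level of the 9 acyl-CoA dehydrogenase and later beta-oxidation members was 12.9, 10.9, 12.7 and 11.1 in replicates 1 to 4 of the high-dose group, against 12.8, 13.7, 12.8 and 12.7 in the vehicle group. The slow-fibre mean was 14.1, 8.36, 13.5 and 10.1 at the high dose, against 11.6, 14.8, 10.8 and 7.85 in vehicle arrays, so that the same 2 treated arrays were low in both. Without treated replicate 2, 4 or vehicle replicate 2, the count of 22 members called became 8, 9 or 11. With the slow-fibre mean as a covariate, 29 members were called, and all 22 of those called without it remained. The slow-fibre means of both groups spanned much the same range, 8.36 to 14.1 at the high dose and 7.85 to 14.8 in vehicle arrays. Such a covariate can shift the difference between the groups little, so this result cannot show the part of slow fibres in it. That covariate does not cover fast fibres, macrophages or other cell types.

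Other cell types moved with this comparison. All 18 tested macrophage and myeloid markers were higher at the high dose, by a median of 4.40, and their mean was 12.3 to 13.6 in treated arrays against 8.46 to 8.68 in vehicle arrays. No marker of that list had a group mean at 0. Of 11 tested fast-fibre markers 10 were lower, with a median change of -1.67 over the list. Of 12 slow-fibre markers 0 passed the test (changes of -0.54 to 1.43), and of 9 endothelium markers 2 were higher (median 0.72). Of 6 adipocyte markers 1 was lower, Lipe (-1.44), which also counts among the other genes of fatty acid handling below. All 13 tested genes of the respiratory chain and citrate cycle, another part of the mitochondrion, were lower, with a median change of -1.38. The part of cell composition in the members' changes was not tested.

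Of 61 other tested genes of fatty acid handling (62 of 68 listed had a probe set), 27 fell and 8 rose in the same comparison. Those that rose included Fabp5, a fatty acid-binding protein, by 4.52, Acsl5 by 2.30, Pdk3 by 1.87 and Plin2, a lipid droplet coat protein, by 1.56. The largest falls were those of Ehhadh, a peroxisomal beta-oxidation enzyme (-4.02), Prkaa2, a catalytic subunit of AMP-activated kinase (-3.47), Rxrg, a retinoid receptor (-3.07), and Plin4, a lipid droplet coat protein (-3.06). Ppargc1a, a coactivator of mitochondrial genes, gave -2.02, and Lpin1, a phosphatidate phosphatase and coactivator, -2.85. The acyl-CoA synthetases and the lipid droplet coats thus held members that moved in either direction, as Cpt1 did among the 36.

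In the unexercised gastrocnemius, 1.0 mg was set against vehicle with 3 and 4 arrays to ask for the effect without running. Acsl6 alone passed, lower by a log2 change of -2.69 ± 0.86 (adjusted p = 0.0473), and 34 members did not. Of all probe sets 9.5% were called in this comparison, 5.7% higher and 3.81% lower. Acsl6 had signals of 461, 253 and 7518 at the high dose, against 7830, 4589, 5662 and 7922 in vehicle arrays. The first 2 treated arrays were far below the vehicle range and replicate 3 was inside it. The members' median was -0.50, against 0.03 over all probe sets.

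Replicate 3 stood apart from its group in other measures too. Its macrophage marker mean was 9.29, against 12.6 and 12.7 in replicates 1 and 2 of the same group and 8.04 to 9.40 in vehicle arrays. Its mean of the 9 beta-oxidation members was 13.2, against 12.7 and 11.9 in the other two. In replicates 1 and 2, Cpt1a was at 737 and 1332, above the vehicle arrays (351, 157, 181 and 351), and replicate 3 was at 226. Angptl4 showed the same order, with 3519, 6975 and 375 at the high dose, against 761, 101, 466 and 573 in vehicle arrays. Neither passed over the 3 arrays (Cpt1a 1.28 ± 0.55, adjusted p = 0.131, and Angptl4 2.42 ± 1.12, adjusted p = 0.157). Without replicate 3, 9 members were called, and without any other single array of these groups 0 were.

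The size of the high-dose effect was compared between exercised and unexercised animals by the interaction of exercise and dose in the gastrocnemius. Of the 35 members 0 passed limma's test, as did 0 of all probe sets (0%). At an unadjusted p under 0.05 there were 2 of 35 members and 1375 of 21729 probe sets, so that the members' share was near that of the array at large. The 2 members were Ech1 (-1.24) and Pdk4 (-1.86). The lowest adjusted p of a member was 0.705. The interval of the interaction for Acsl6, the member with the largest fall, ran from -3.58 to 1.23 on the log2 scale.

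At 0.1 and 0.5 mg/kg/day, 0 of 35 members were called in either exercise state, with 0% of all probe sets called by limma. At an unadjusted p under 0.05 there were 0, 0 and 0 members at 0.5 mg exercised, 0.5 mg unexercised and 0.1 mg exercised, and 1 at 0.1 mg unexercised, which was Mlycd (-0.69). Over all probe sets the unadjusted counts ranged from 593 to 957. At 0.1 mg the members' changes ranged from -0.99 to 0.62 with exercise and from -1.14 to 0.37 without. At 0.5 mg they ranged from -0.34 to 1.06 with exercise and from -0.12 to 1.00 without. Acsl6 had signals of 3456, 5267, 3866 and 3799 at 0.1 mg exercised and of 7785, 5941 and 7346 at 0.5 mg exercised, against 7303, 5682, 6390 and 4108 in vehicle arrays. Of the 4 arrays at 0.1 mg, 3 lay below the vehicle range, but the change did not pass. Replicate 3 of the unexercised 0.1 mg group, the array high in adipocyte markers, had 560, below the 4973 to 6161 of the other three.

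Exercise alone was tested in vehicle animals (4 arrays each). In the gastrocnemius 0 of 35 members were called, with 0% of all probe sets, and 1 member and 724 probe sets had an unadjusted p under 0.05. That member was Pdk4, with signals of 17203, 37050, 23007 and 19680 in exercised arrays, against 21519, 2571, 8589 and 11604 in unexercised arrays (1.43 ± 0.58, unadjusted p = 0.0201, adjusted p = 1.00). In the soleus 0 members and 0% of all probe sets were called, and 0 members and 645 probe sets had an unadjusted p under 0.05. The members' changes there ranged from -0.10 to 0.77.

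In the soleus the high dose was compared with vehicle in exercised and unexercised animals. In both, 0 of 35 members and 0% of all probe sets were called by limma. At an unadjusted p under 0.05 there were 2 members and 1156 of 21729 probe sets with exercise, and 0 members and 593 probe sets without. The 2 members were Fabp3 (-0.52) and Etfb (-0.38). Changes lay below 0 for 31 members with exercise and 8 without. Their median was -0.23 with exercise and 0.09 without, against -0.003 and 0.014 over all probe sets. The changes of the members ranged from -0.53 to 0.89 with exercise and from -0.36 to 0.69 without. The 95% interval lay within 1 log2 unit of no change for 29 members in exercised and 30 members in unexercised animals. Those whose interval reached further in exercised animals were Acsl6, Angptl4, Cd36, Pdk4, Plin5 and Slc25a20. Acsl6 had signals of 1060, 1704, 1437 and 1268 in high-dose exercised soleus, against 2384, 1918, 2828 and 1126 in its vehicle arrays. Pdk2 had 5390, 13747, 11168 and 11679 at the high dose, against 10088, 13451, 8478 and 9777 in vehicle arrays. Replicate 1 of the treated group, high in adipocyte markers and low in the actin ratio, was the lowest for Pdk2 and for Cpt1b. Its mean log2 level over all tested members was 12.2, against 12.8, 13.1 and 12.8 in replicates 2, 3 and 4. In the vehicle arrays of exercised animals that mean was 12.7 to 13.1.

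Whether the high dose acted differently on the muscles was tested directly, as the effect in the soleus minus the effect in the gastrocnemius, in a fit over all 45 arrays. In exercised animals 5 of 35 members differed, and 25.3% of all probe sets did. The difference in effect was positive for 4 members (11.4%) and negative for 1 (2.9%), against 11.6% and 13.7% of all probe sets, so that the positive share was that of the array at large. The positive ones were Acsl6 (3.34 ± 0.97, adjusted p = 0.0113), Pdk2 (2.54 ± 0.68, adjusted p = 0.0065), Acsl1 (2.01 ± 0.71, adjusted p = 0.0326) and Ech1 (1.53 ± 0.51, adjusted p = 0.0261), which fell in the gastrocnemius. It was negative for Cpt1a (-1.84 ± 0.68, adjusted p = 0.0448). Acsl1 had signals of 12142, 12704, 16773 and 12514 in high-dose exercised soleus, against 17590, 16395, 14992 and 14416 in its vehicle arrays. Cpt1a had 1289, 290, 644 and 462 at the high dose, against 451, 392, 630 and 694 in vehicle arrays, so that only replicate 1 was above the vehicle range. The macrophage marker mean in these soleus arrays was 9.40 to 10.8 at the high dose, against 8.46 to 9.70 in vehicle arrays.

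The count of 5 depended on single arrays: it became 2 without replicate 2 or 4 of the high-dose exercised gastrocnemius, replicate 3 of the high-dose soleus, or replicate 3 or 4 of the vehicle soleus. It became 3 without replicate 2 of the vehicle gastrocnemius, and 11 without replicate 1 or 3 of the high-dose gastrocnemius or replicate 1 of the high-dose soleus. In unexercised animals 0 of 35 members differed between the muscles, and 0.0092% of all probe sets did (2 of 21729, 0.0046% in either direction). There, 3 of 35 members and 3929 of 21729 probe sets had an unadjusted p under 0.05, so that members did not stand out from the array at large. Of these members Acsl6 gave 2.72, Cpt1a -1.64 and Mlycd 1.14. Without replicate 3 of the unexercised high-dose gastrocnemius, 4 members were called.

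Soleus and gastrocnemius were compared in vehicle animals to describe how the pathway differs between an oxidative and a mixed muscle. This shares the vehicle gastrocnemius arrays with the dose comparisons, and the labels give about 3 µg of input RNA for soleus and 4 µg for gastrocnemius, so muscle and input cannot be told apart. In exercised animals 5 of 35 members were higher in the soleus and 0 lower, where 6.33% and 6.83% of all probe sets were (13.2% in either direction). Of the 5 uptake members 2 were higher, Lpl and Cd36. The other three did not pass, with 1.78 for Fabp3, 0.73 for Plin5 and -0.35 for Angptl4. Lpl had signals of 38068, 38472, 32654 and 31436 in soleus, against 5520, 18048, 4267 and 3194 in gastrocnemius (2.53 ± 0.49, adjusted p = 0.000591). Cd36 had 12120, 16605, 7183 and 7552 in soleus, against 3128, 8697, 2857 and 2368 in gastrocnemius (1.47 ± 0.47, adjusted p = 0.032). Lpl did not overlap between the muscles, and Cd36 did through replicate 2 of the gastrocnemius.

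The other 3 lay in transport and oxidation. Slc25a20 had 5790, 5345, 3343 and 3473 in soleus, against 1404, 3277, 1270 and 1092 in gastrocnemius (1.45 ± 0.41, adjusted p = 0.0155). Eci1 had 10706, 15943, 8593 and 7802 in soleus, against 3361, 9070, 4069 and 3460 in gastrocnemius (1.18 ± 0.35, adjusted p = 0.0205). A second, dim probe set of Eci1 was lower in the soleus (-2.14 ± 0.70, adjusted p = 0.0362, mean signal 28.8 against 160), and the mean of both probe sets gave -0.48, in the other direction. Etfa was 1.00 ± 0.32 higher (adjusted p = 0.0331). Replicate 2 of the vehicle exercised gastrocnemius, whose slow-fibre mean was the highest of its group, was also the highest of its group for all of these. The count of 5 became 8 without that array, 2 without replicate 1 of the gastrocnemius or replicate 1 or 2 of the soleus, and 1 without replicate 3 or 4 of the gastrocnemius.

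In unexercised vehicle animals only Lpl passed, of 35 members, where 7.02% of all probe sets did, 3.26% higher and 3.76% lower. It had signals of 44068, 28192, 25736 and 45439 in soleus, against 17220, 10479, 6818 and 8367 in gastrocnemius (1.78 ± 0.49, adjusted p = 0.0215). Acsl6 went the other way without passing, with 1713, 2157, 1425 and 1974 in soleus, against 7830, 4589, 5662 and 7922 in gastrocnemius (-1.81 ± 0.69, adjusted p = 0.103). The members' median was 0.48 in unexercised and 0.71 in exercised animals, against 0.06 and 0.05 over all probe sets. In exercised animals the acyl-CoA dehydrogenases gave values between 0.17 and 0.88, with a median of 0.72, and 0 of these 4 passed. The later beta-oxidation steps had a median of 0.69, and 0 of 5 passed. Both medians were near that of all members. Without vehicle gastrocnemius replicate 3 or 4, or soleus replicate 1 or 4, Lpl was not called in unexercised animals.

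Marker levels differed between the muscles in the same arrays. Of 12 slow-fibre markers 11 were higher in the soleus of exercised animals, by a median of 4.43 over the list, and 1 was higher in unexercised animals, with a median of 1.57. Of 11 fast-fibre markers 7 and 6 were lower. Of 6 adipocyte markers 3 were higher and 1 lower in exercised animals, and 0 higher and 1 lower in unexercised animals. The lower one was Lipe in both (-0.77 and -1.05). Of 9 endothelium markers 1 was higher in exercised and 0 in unexercised animals, with medians of 0.772 and 0.585. The part of adipocyte and endothelium markers in the values of Lpl and Cd36 was not tested. Among 61 other fatty acid genes, 12 were higher (19.7%) and 9 lower (14.8%) in the soleus of exercised animals, against 6.33% and 6.83% of all probe sets. In unexercised animals 5 were higher (8.2%) and 7 lower (11.5%), against 3.26% and 3.76%. Bdh1, an enzyme of ketone body use, was 3.49 and 3.36 higher in exercised and unexercised animals. Esrrg, a nuclear receptor of oxidative muscle, was 2.56 higher in exercised animals. The largest differences the other way were those of Ehhadh (-1.92 and -1.56) and Lpin1 (-1.76 and -1.34), in exercised and unexercised animals.

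**Figure D4:**
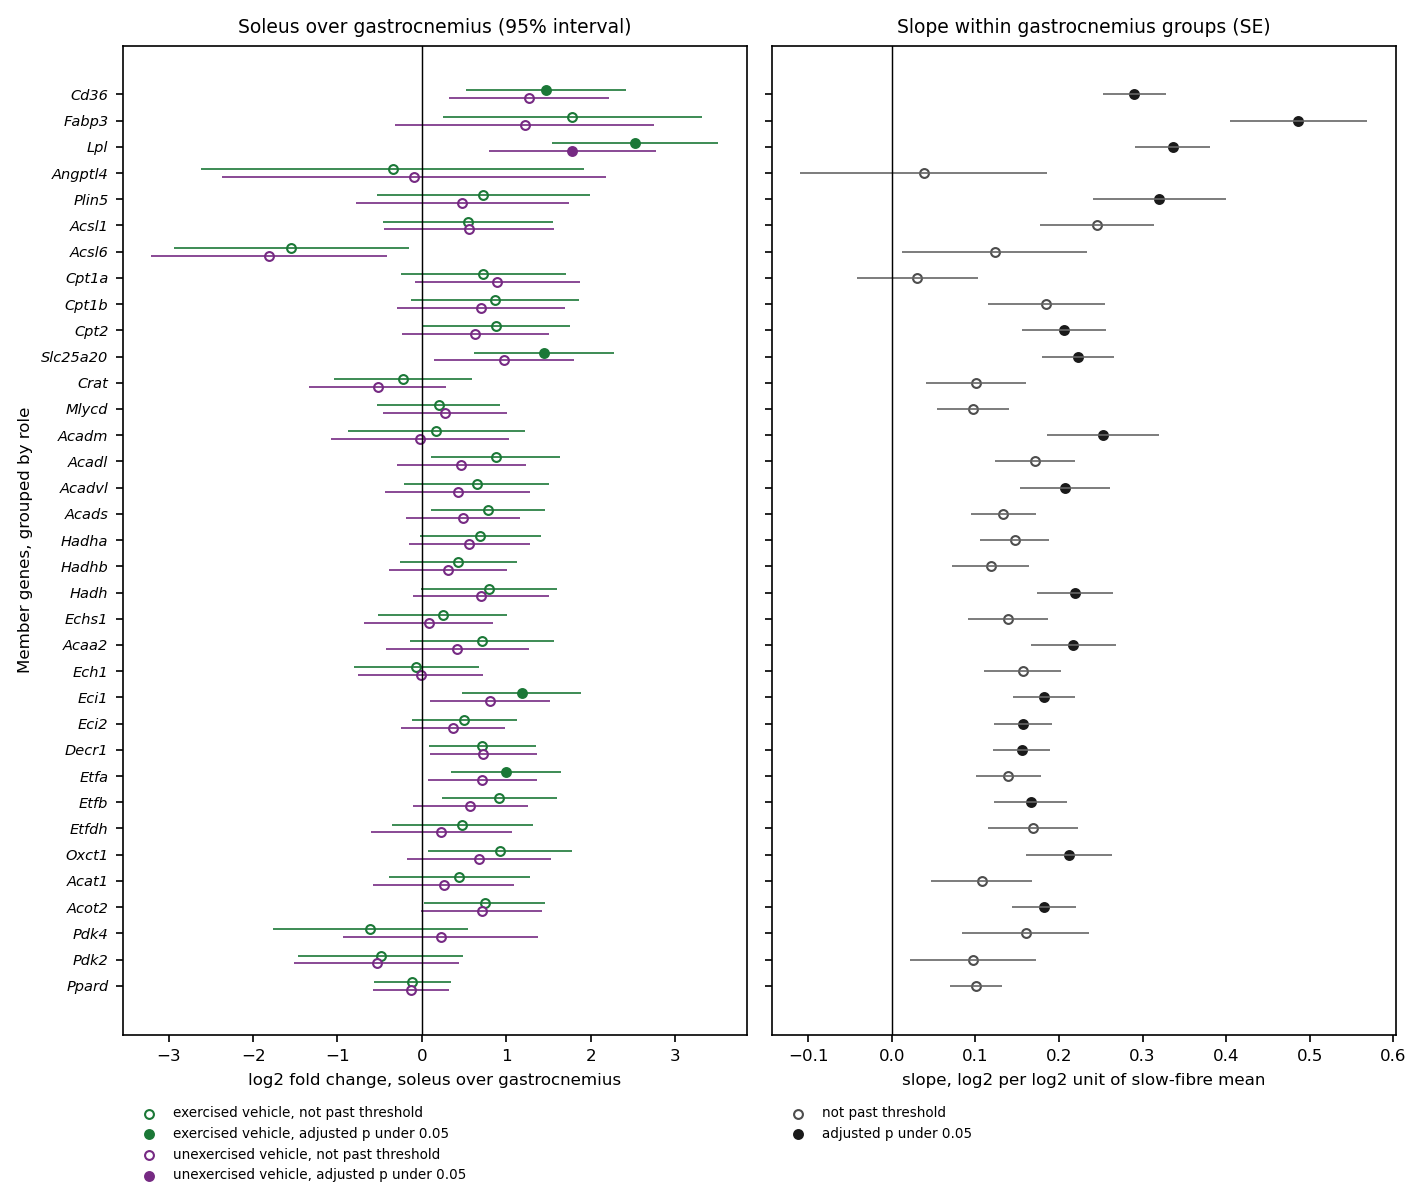
Left, the log2 fold change of each member in soleus over gastrocnemius of vehicle animals with its 95% interval, green for exercised and purple for unexercised. Right, the slope of each member on the slow-fibre mean within the gastrocnemius groups with its SE. Filled points passed the threshold, and on the right all 35 slopes are above 0.

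Because the slow-fibre mean varied so much among gastrocnemius arrays of the same group, each member was also regressed on it within groups, over all 30 gastrocnemius arrays, a comparison added after the data were seen. Of 35 members 16 had a slope that passed, all positive, which is 45.7%, against 1.52% of all probe sets with a positive and 0.598% with a negative slope (2.12% in all). All 35 slopes were above 0, between 0.03 and 0.49, with a median of 0.17 log2 units per log2 unit of the slow-fibre mean. Members share these 30 arrays, so their slopes are not independent of each other.

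Of the 5 uptake members 4 had a slope that passed, and Angptl4 did not. Fabp3 rose by 0.49 ± 0.08 per log2 unit (adjusted p = 0.000949), Lpl by 0.34 ± 0.04 (adjusted p = 3.17e-05), Plin5 by 0.32 ± 0.08 (adjusted p = 0.0303) and Cd36 by 0.29 ± 0.04 (adjusted p = 2.81e-05). Of the entry genes Slc25a20 (0.22) and Cpt2 (0.21) passed. Acadm, Acadvl, Hadh, Acaa2, Eci1, Eci2, Decr1, Etfb, Oxct1 and Acot2 passed with slopes between 0.16 and 0.25. Of the 6 members with the largest high-dose changes in the exercised gastrocnemius, Plin5 had a slope that passed and the other five did not: Acsl6 0.12 ± 0.11, Angptl4 0.04 ± 0.15, Pdk2 0.10 ± 0.08, Acsl1 0.25 ± 0.07 (adjusted p = 0.0572) and Cpt1a 0.03 ± 0.07. Whether slopes differ between these members was not tested.

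**Figure D5:**
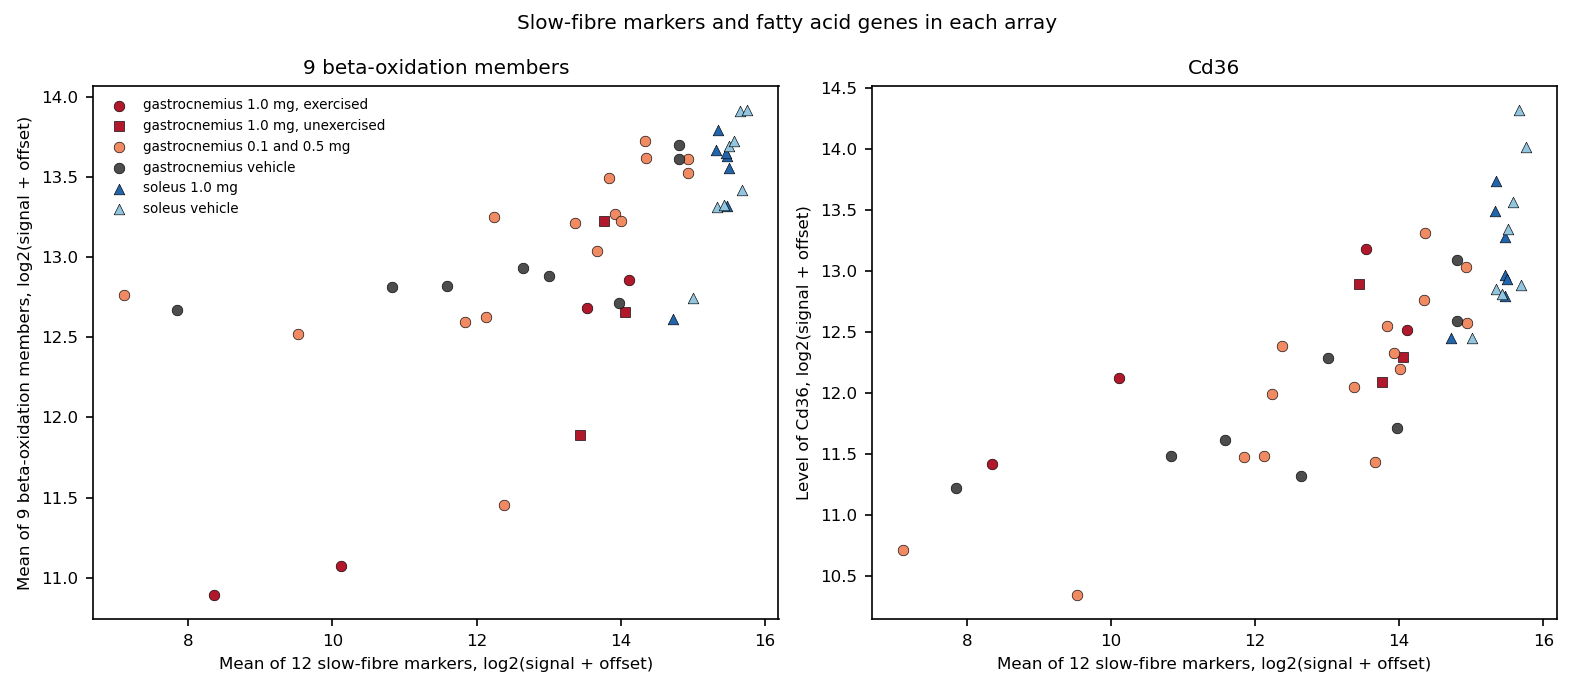
Each point is an array, with the mean of 12 slow-fibre markers on the x axis and, on the y axis, the mean of 9 beta-oxidation members (left) or Cd36 (right), all in log2(signal + 12.4). Replicates 2 and 4 of the exercised gastrocnemius at 1.0 mg, at a slow-fibre mean of 8.36 and 10.1, have the lowest beta-oxidation means (10.9 and 11.1), while vehicle replicate 4 at a slow-fibre mean of 7.85 has 12.7.

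The slope rests on few arrays. Within the 6 gastrocnemius groups at vehicle, 0.1 and 0.5 mg, 9 members passed, and without vehicle exercised replicate 2 alone 5 did. In the unexercised 0.1 mg group, 7 passed without replicate 1, 27 without replicate 3 and 26 without replicate 4. There were 9 without replicate 1 of the exercised 0.1 mg group, or without replicate 1 or 2 of the exercised 1.0 mg group.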

How the data were processed

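Total RNA of 45 muscle samples in 12 groups was measured on single-channel arrays, and replicates are labelled biological. Each probe set has a deposited intensity on a linear scale. The submitters' processing notes name MAS5, with neither version nor scaling target. With 2% of the values trimmed from both ends, array means were 600.2 to 600.3, so values were used as scaled. Arrays have no read depth, and their number limits the precision.

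Of 31099 probe sets, 57 controls were left out. Symbols came from the platform annotation. Values were analysed as log2(value + 12.4), the offset being the 10th percentile of all values, and this understates changes of dim probe sets. The 21729 probe sets whose mean log2 value reached the 30th percentile (6.03) were tested in R 4.3.3 by limma 3.58.1, as group means with a prior variance that follows the mean signal. The fits took the 30 gastrocnemius arrays, the 15 soleus arrays or, between muscles, all 45. P-values were Benjamini-Hochberg adjusted over all tested probe sets within a comparison, threshold 0.05. An adjusted p is limma's, ± after a log2 change is its SE, and "called" means past this threshold.

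Where a gene had several tested probe sets, the brightest on average stands for it; 12 members had more than 1 probe set. Values per array are given for the 6 largest called falls and up to 4 called rises in the high-dose exercised gastrocnemius, the 4 largest called changes of every other comparison, and the first member of each role not so covered; Hadhb, Fabp3 and Pdk4, and the other-comparison values of named members, were added after their values were seen. The members and lists were chosen with earlier results of these data known. The script was tested on simulated data. Alternatives were other offsets, filters, normalizations, probe set rules, variance models, array weights, left-out arrays and a replicate block. Deviations of same-numbered replicates of different groups had correlations of -0.293 to 0.342 (30 pairs, 5 over 0.1), and samples were not paired by number. These values cannot show whether soleus and gastrocnemius came from the same animals, and the fits treated all arrays as independent.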

Additional observations from a re-analysis of the deposited data

Results flagged for a closer look

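Within groups of 4 arrays, each member was tested for 1 array far from the other three by Dixon's ratio of the gap to the group's range. Of 315 such tests 26 (8.25%) stood out, and chance alone flags about 1 in 20. The 26 fell on 9 arrays. Members share these arrays, so the tests are not independent, and 8.25% cannot be read as an excess over that rate.

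In replicate 1 of the exercised soleus at 1.0 mg, 6 members were low: Cpt1b at 9339, Mlycd at 1282, Acadl at 15828, Acads at 1531, Hadhb at 14640 and Acaa2 at 7904. This array had a high adipocyte marker mean (13.2), the second lowest actin 5′ to 3′ ratio of all 45 arrays (0.245) and the highest macrophage marker mean of the soleus arrays (10.8), and the part of these was not tested. In replicate 3 of that group Acsl1 was high at 16773. In replicate 3 of the unexercised soleus vehicle group Crat was low at 4516 and Pdk2 at 6459.

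In replicate 2 of the exercised vehicle gastrocnemius 5 members were high: Acsl1 at 18322, Ech1 at 27531, Eci2 at 4988, Decr1 at 8326 and Etfb at 15981. In replicate 1 of the unexercised vehicle gastrocnemius 4 members were high: Fabp3 at 40310, Acadm at 32734, Eci2 at 4375 and Etfb at 13974. These 2 arrays had the highest slow-fibre mean of their groups, 14.803 and 14.802.

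In replicate 3 of the unexercised gastrocnemius at 0.1 mg 4 members were low: Acsl6 at 560, Crat at 1787, Ech1 at 5687 and Pdk2 at 2244. In replicate 1 of that group Decr1 was high at 6655. In replicate 3 of the unexercised gastrocnemius at 0.5 mg Cpt2 was high at 5264 and Hadh at 12598. In replicate 1 of the exercised gastrocnemius at 0.1 mg Ppard was high at 1416.

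For 5 members the high-dose effect differed between the muscles in exercised animals, by the interaction test: Acsl6 (3.34), Pdk2 (2.54), Acsl1 (2.01), Ech1 (1.53) and Cpt1a (-1.84), as soleus effect minus gastrocnemius effect. Of the members 11.4% were called positive and 2.9% negative in this test, against 11.6% and 13.7% of all probe sets.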

How the results depend on the processing

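Counts of members called were recomputed under each alternative. In the exercised gastrocnemius at 1.0 mg (22 called) the count was 12 with only the arrays of the groups compared and 8 to 27 when single arrays were left out. In the unexercised gastrocnemius at 1.0 mg (1 called) it was 0 with no filter, with the mean of all probe sets, with a prior variance without trend, with only the groups compared and with the replicate number as a block. It was 2 without the 3 arrays of lowest actin ratio, 18 with array weights, 4 without the 3 arrays of highest adipocyte mean (an alternative chosen after seeing the data) and 0 to 9 with single arrays left out. For soleus against gastrocnemius in unexercised animals (1 called) it was 2 with only the groups compared, 8 with array weights, 4 without the adipocyte-rich arrays and 0 to 1 with single arrays left out. In exercised animals (5 called) the same settings gave 15, 17, 8 and 1 to 8. For the difference between muscles in the high-dose effect of exercised animals (5 called) they gave 3, 27, 13 and 2 to 11, and 12 without the low-actin arrays. In unexercised animals (0 called) it was 8 with array weights and 0 to 4 with single arrays left out. The interaction of exercise and dose (0 called) gave 9 with array weights. The slope on the slow-fibre mean (16 called, chosen after seeing the data) gave 9 in the vehicle, 0.1 and 0.5 mg groups, 27 without the adipocyte-rich arrays, 8 with the replicate block and 5 to 27 with single arrays left out. Eci1 between muscles of exercised animals reversed to -0.48 with the mean of all probe sets, whose second probe set was lower in the soleus. The cause of the other changes was not tested. Samples were not paired by replicate number, and the block moved no other count by over 1.5 times. In the comparisons at 0.1 and 0.5 mg, of exercise alone and of the high dose in soleus, 0 members were called under all alternatives run. For single members named in the exercised high-dose comparison, 442 of 506 values kept their direction and call, 64 kept the direction without passing, and 0 reversed.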
